A study of Gallus gallus with 4 samples.

Results

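CTCF peaks of erythroid HD3 cells were compared after induction of differentiation and without it. All peaks on the numbered chromosomes and Z entered, 4814 from the induced and 8761 from the non-induced library, which together are 13575 of the 27162 peaks of the series. The HD3 line consists of chicken erythroblasts that carry avian erythroblastosis virus as the transforming agent. It is clone A6 of the line LSCC, so both libraries come from a single clone. The induced cells were kept in the same serum-containing medium with HEPES and iso-H-7, an inhibitor of protein kinases, at a higher temperature and in air. The non-induced cells were grown at the usual temperature under CO2. The labels give no length of the induction. Chromatin of both states was fixed for 8 min in 1% formaldehyde and precipitated with a rabbit antibody raised against residues 86 to 233 of chicken CTCF. There was 1 library a side, so every difference below is between 2 libraries, has no replicate check and carries no p-value. Peak lists hold no expression values, so the erythroid identity of the cells was not checked here.

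CTCF is a zinc finger protein that binds a long GC-rich motif and keeps much of its binding pattern from one cell type to another. It halts loop extrusion by cohesin, so its sites often mark the bases of chromatin loops and the borders of domains. Chicken erythroid cells have a special place in its history: the insulator at the border of the chicken beta-globin locus acts through CTCF. HD3 cells start to make haemoglobin when they are induced, and the comparison asks how far CTCF sites differ between these states.

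The strongest peaks of each state were called in the other state too, and peaks without a partner lay lower in the rankings. Peaks were ranked by the authors' own score within each list, and a peak counted as shared when at least 1 bp of it was overlapped in the other list. Of the 500 top-ranked induced peaks, 498 were overlapped somewhere in the non-induced list. All 500 top-ranked non-induced peaks were overlapped in the induced list. Down the induced list the overlapped share stayed high, at 97.0% (95% interval 95.1 to 98.3) for ranks 2001 to 2500 and 79.6% (74.7 to 83.9) for ranks 4501 to 4814. Down the non-induced list it fell away, to 79.8% (76.0 to 83.2) for ranks 2001 to 2500, 50.8% (46.3 to 55.3) for ranks 3501 to 4000 and 10.7% (7.25 to 15.1) for ranks 8501 to 8761. Over whole lists, 92.4% of induced and 50.2% of non-induced peaks were overlapped. These lists differ in length, and every interval here is an exact binomial interval that covers counting error only and takes peaks as independent.

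Equal numbers of top-ranked peaks take away the difference in length. The 4814 induced peaks were therefore set against the 4814 top-ranked non-induced peaks, the last of which had a score of 100.12, the same as the first one left out. Of the induced peaks, 3619 or 75.2% (73.9 to 76.4) were overlapped, and of the non-induced peaks 3572 or 74.2% (72.9 to 75.4). The share was 67.4% (63.1 to 71.5) of induced and 67.2% (62.9 to 71.3) of non-induced peaks when only the top 500 were taken. It was 71.6% and 71.4% with 1000, 74.2% and 73.7% with 2000, and 75.4% and 74.5% with 4000. At 2000 peaks and more the share was thus nearly level. Both directions count nearly the same pairs, so they are not separate results.

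**Figure D1:**
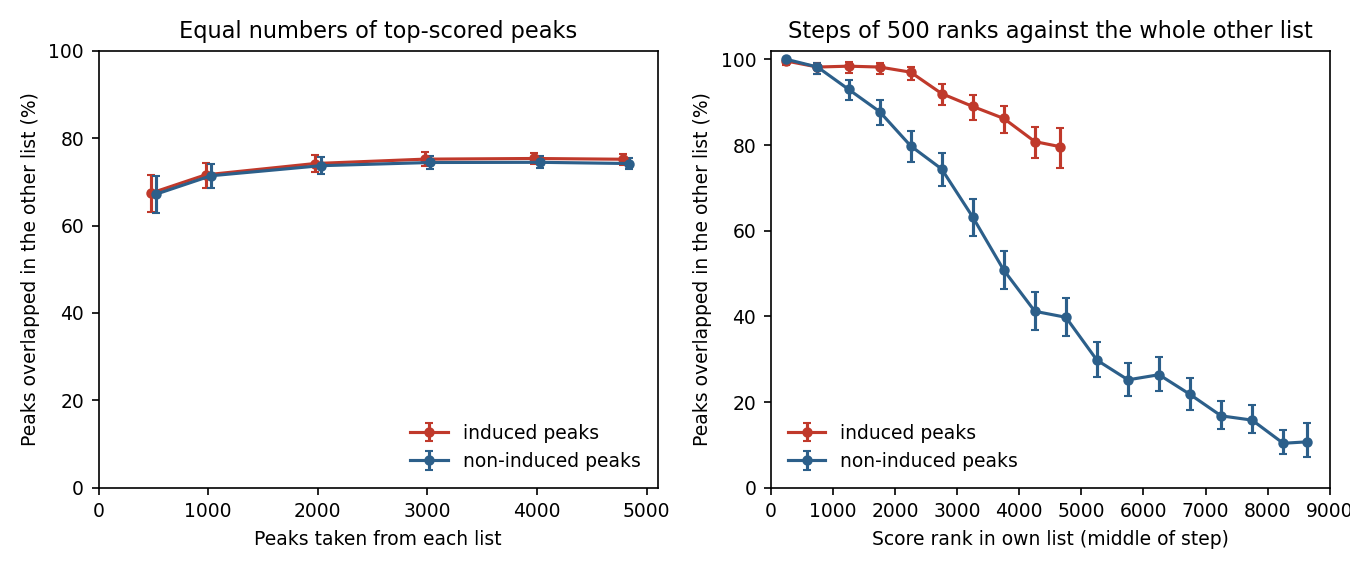
Share of peaks (%) overlapped by at least 1 bp in the other HD3 list, with exact 95% binomial intervals. Left, equal numbers of top-scored peaks against each other, where both lists rise from about 67% at 500 peaks to about 75% at 4814; right, steps of 500 score ranks against the whole other list, where the induced list stays above 79% and the non-induced list falls to about 10%.

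Among the strongest peaks, a missing partner at equal rank was nearly always called at a lower rank. Of the 500 top induced peaks, 163 had no partner among the 500 top non-induced peaks, but 161 of those had one further down. For 457 of the 500 the partner stood among the first 1000, and the lowest partner stood at rank 2712. Of the 500 top non-induced peaks, 164 had no partner among the 500 top induced peaks and all 164 had one further down, the lowest at rank 3979. Over the full induced list, 828 of the 1195 peaks that lacked an equal-rank partner overlapped a lower-ranked non-induced peak, and 367 overlapped none.

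Paired peaks mostly had close centres, though a pair had to overlap, which by itself limits the distance between centres. There were 4353 pairs in which 1 induced peak overlapped 1 non-induced peak and neither touched another. The lists give no summits, so the centre of a peak was taken as its midpoint. The induced centre lay a median of 34.0 bp from the non-induced one, with quartiles of 16.0 to 65.5 bp. Centres were within 50 bp in 65.2% of pairs (63.8 to 66.6), within 100 bp in 85.7% (84.6 to 86.7) and within 250 bp in 93.6% (92.8 to 94.3). The induced centre had the higher coordinate in 2178 pairs, the lower in 2161 and the same in 14, so the offsets had no common direction. Distances hardly varied with rank: the median was 36.5 bp for the upper quartile of pairs by mean rank and 33.0 bp for the lowest quartile.

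Large offsets went with long non-induced peaks. In the 564 pairs with a non-induced peak over 1500 bp the median distance was 244 bp, against 30.5 bp in the 3789 pairs with a shorter one. All 65 pairs with centres over 500 bp apart were among those 564, and their non-induced peaks had a median width of 2415 bp. The induced peak lay wholly inside the non-induced one in 4340 of 4353 pairs. A short non-induced peak thus leaves little room for a large offset, and this outcome was largely set in advance.

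Induced peaks were about 0.53 times as long as non-induced peaks at the same site. In the pairs the median width was 651 bp in induced cells (quartiles 592 to 719) and 1234 bp in non-induced cells (1169 to 1310). The non-induced peak was the longer in 4353 of 4353 pairs, and the induced peak lay wholly inside it in 4340 (99.7%, interval 99.5 to 99.8). The excess was even on both sides: the non-induced peak reached a median of 288 bp further at the lower coordinate (245 to 331) and 288 bp further at the higher one (247 to 330). The difference of induced minus non-induced width was also much the same at all strengths, with a median of -558.5 bp in the highest quartile of mean rank and -587 bp in the lowest. The sources used here give neither read depth, fragment length nor the settings of the peak caller, so their part in the widths was not tested.

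**Figure D2:**
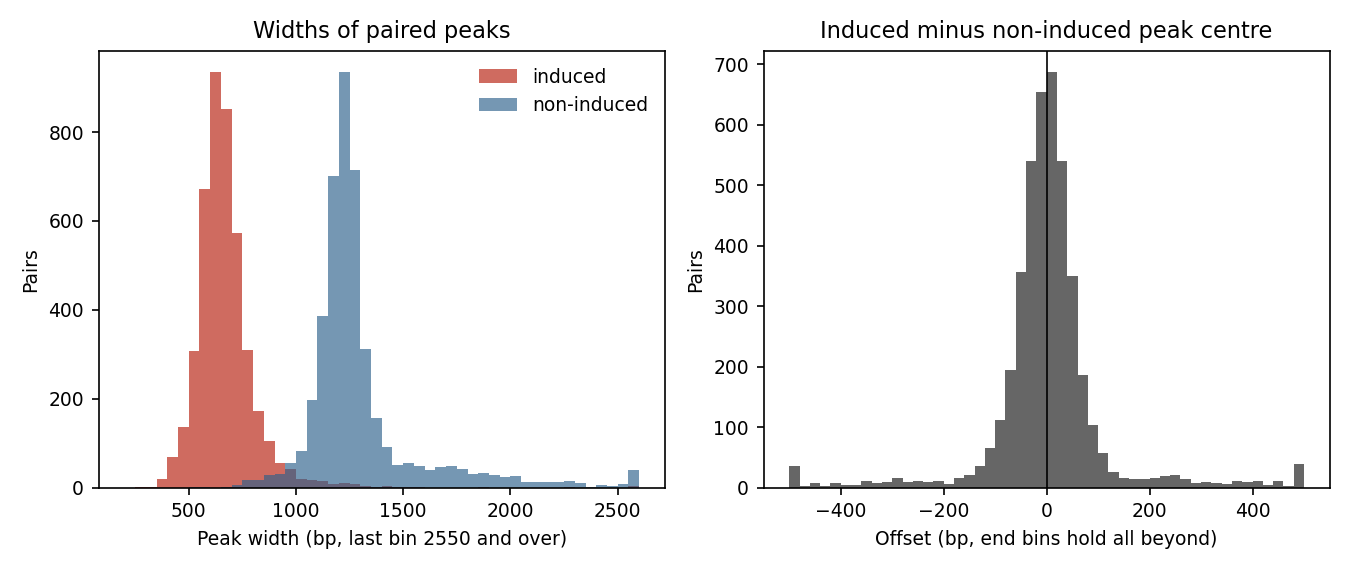
Left, widths (bp) of the 4353 paired peaks in induced and non-induced HD3, with medians of 651 and 1234 bp and little overlap. Right, induced minus non-induced peak centre (bp) in the same pairs, a narrow distribution about 0 with 85.7% of pairs within 100 bp.

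Width rose with score rank in both lists. The 1000 top-ranked induced peaks had a median width of 742 bp, and ranks 4001 to 4814 had 592 bp. In the non-induced list the 1000 top-ranked peaks had a median of 1312 bp, ranks 4001 to 5000 had 1210 bp and ranks 8001 to 8761 had 1154 bp. Even the weakest non-induced peaks were therefore longer at the median than the strongest induced ones.

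Some long non-induced peaks covered neighbouring induced peaks. A non-induced peak was overlapped by 2 induced peaks in 47 cases, whereas 0 induced peaks were overlapped by more than 1 non-induced peak. These 47 non-induced peaks were 1704 to 5113 bp long with a median of 2225 bp, and 31 of them stood among the 1000 top-ranked. The centres of the paired induced peaks lay a median of 996 bp apart (quartiles 794 to 1212). The highest-scored example was on chromosome 3. There, induced peaks at 77404144 to 77404890 (rank 194) and 77404982 to 77406104 (rank 118), with centres 1026 bp apart, lay in a single non-induced peak at 77403859 to 77406973 that ranked 8. Coordinates are on galGal4, counted from 1. The ranks of such peaks refer to intervals of different extent, so these 47 were left out of the pairs.

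At equal numbers the peaks of both states were spaced nearly alike. The median gap between neighbours was 91.9 kb in induced HD3 (quartiles 31.9 to 235.8) and 85.7 kb in non-induced HD3 (29.96 to 223). Neighbours within 10 kb accompanied 18.6% of induced peaks (17.5 to 19.7) and 18.8% of non-induced peaks (17.7 to 20.0). Gaps under 1 kb numbered 73 in the induced and 75 in the non-induced list, of 4785 each. Gaps over 500 kb made up 10.6% (9.70 to 11.5) of the induced and 9.95% (9.11 to 10.8) of the non-induced ones. With all non-induced peaks the median gap there was 50.1 kb, further from the induced value than at equal numbers. Induced peaks without an equal-rank partner had a neighbour within 10 kb in 15.3% of cases (13.3 to 17.5), and those with one in 19.6% (18.4 to 21.0). For non-induced peaks the shares were 18.0% (15.9 to 20.3) and 19.1% (17.8 to 20.4).

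Chicken chromosomes fall into a few large macrochromosomes and many small, gene-rich microchromosomes. They were grouped here as macro (1 to 5), intermediate (6 to 10), micro (11 to 28) and Z. At equal numbers the macrochromosomes held 2227 induced and 2191 non-induced peaks, the intermediate ones 815 and 830, and the microchromosomes 1531 and 1603. Z had the highest ratio, 1.27, with 241 induced against 190 non-induced peaks. Among the 28 chromosomes with at least 30 induced peaks, the ratio otherwise ran between 0.803 on chromosome 28, with 49 against 61 peaks, and 1.12 on chromosome 27. Of all top-ranked peaks, Z held 5.01% (4.41 to 5.66) in induced and 3.95% (3.41 to 4.54) in non-induced HD3. The order was the same with 2000 peaks, at 4.00% and 3.25%, and with 1000, at 2.90% and 2.10%. With whole lists Z held 5.01% of induced and 4.63% (4.20 to 5.10) of non-induced peaks, a smaller difference. The intervals of both lists overlapped in every one of these comparisons, the one at equal number included. Z was singled out as the highest ratio among the 28 chromosomes, and the intervals do not allow for that choice.

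Against the 75.2% of all induced peaks overlapped at equal number, the share of induced peaks was highest on the microchromosomes and lowest on Z. Induced peaks were overlapped in 81.5% of cases on microchromosomes (79.4 to 83.4), 76.7% on intermediate chromosomes (73.6 to 79.6), 71.7% on macrochromosomes (69.7 to 73.5) and 62.7% on Z (56.2 to 68.8). Against 74.2% of all non-induced peaks, the shares were 76.4% on microchromosomes (74.3 to 78.5), 74.2% on intermediate chromosomes (71.1 to 77.2), 72.2% on macrochromosomes (70.3 to 74.1) and 78.4% on Z (71.9 to 84.0). The contrast between micro- and macrochromosomes was thus smaller when asked from the non-induced list. With 1000 peaks per list it turned there, to 69.6% on micro- and 74.1% on macrochromosomes. On Z both shares rest on nearly the same overlaps, 151 of 241 induced and 149 of 190 non-induced peaks. At equal number the low induced share on Z thus goes with the larger induced count there and is not a separate result. With whole lists Z held 241 induced and 406 non-induced peaks. The overlapped share of induced peaks on Z was then 84.6%, against 92.4% of all induced peaks. On microchromosomes the overlaps were 1247 of 1531 induced and 1225 of 1603 non-induced peaks. Induced sharing was lowest on Z under each of the 4 overlap rules and with 1000, 2000, 4814 or all peaks. The place of Z among non-induced shares varied. With 1000 peaks per list it was 66.7% (43.0 to 85.4), which rests on only 21 non-induced peaks. When each centre was given a fixed window of 200 bp in place of the peak, induced sharing was 70.3% on microchromosomes, 65.8% on macrochromosomes and 47.7% on Z. Among single chromosomes with at least 30 induced peaks, the overlapped share of induced peaks ran between 62.7% on Z and 93.0% on chromosome 23.

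**Figure D3:**
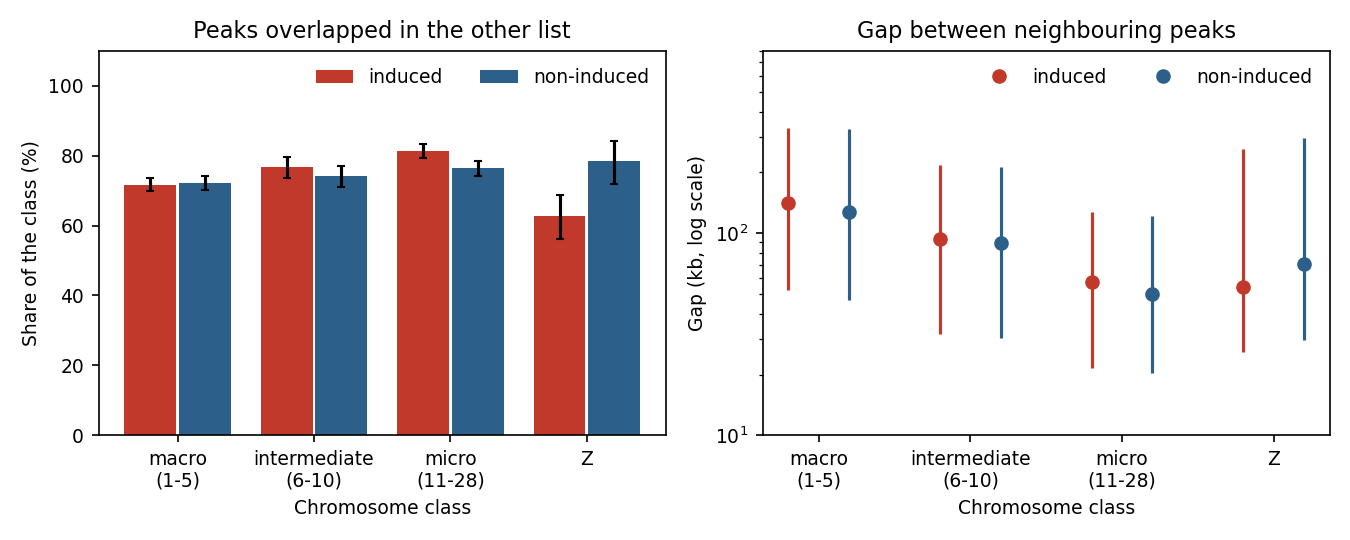
The 4814 top-ranked peaks of each list by chromosome class. Left, share (%) overlapped in the other list with exact 95% binomial intervals, where Z is lowest for induced peaks (62.7%) and microchromosomes highest (81.5%); right, median gap (kb, log scale, lines span the quartiles), shortest on Z (54.4 kb) and microchromosomes (57.4 kb) in induced HD3.

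Gaps by class followed the counts of peaks on Z and the microchromosomes. On macrochromosomes they did not: induced HD3 had the higher count, 2227 against 2191 peaks, and also the longer median gap. On Z the median gap was 54.4 kb in induced and 70.5 kb in non-induced HD3, on microchromosomes 57.4 and 50.1 kb, and on macrochromosomes 142 and 127 kb. The lists thus crossed over: induced peaks were the closer together on Z, and non-induced peaks on the other classes.

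Rank shifts compare the standing of a site within each list. Both scores of the 4353 pairs were ranked over the same pairs and put on a scale of percentiles, with 100 for the highest. The shift is the induced minus the non-induced percentile, so that a positive value means a higher rank in induced cells. A rank is relative to the other pairs, so a site can also rank lower only because others rank higher. This, fewer cells with CTCF at the site, less CTCF per cell and differences between the libraries cannot be told apart here. Shifts were under 10 points in 43.3% of pairs (41.9 to 44.8). They reached 20 points or more upward in 681 pairs (15.6%, interval 14.6 to 16.8) and downward in 680 pairs (15.6%, interval 14.6 to 16.7). Any upward shift was found in 50.9% of pairs. Both rankings covered the same pairs, so the shifts sum to 0 and this near balance is largely set by the ranking. The strongest sites moved least: 71.5% of the highest quartile by mean rank shifted by under 10 points, against 24.8% in the second lowest quartile and 44.6% in the lowest. Shifts near either end of a ranking have less room by construction.

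**Figure D4:**
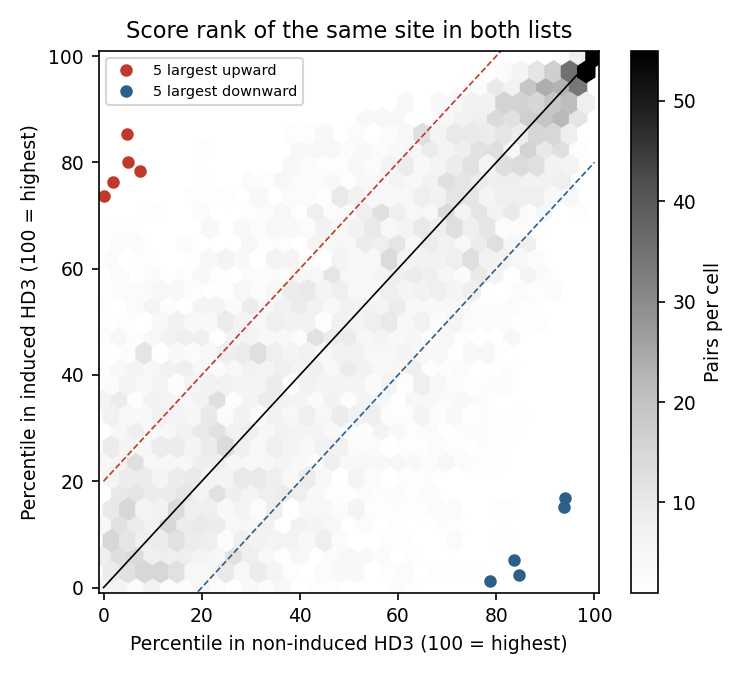
Percentile of the same site in induced (vertical) and non-induced HD3 (horizontal) for 4353 pairs, shaded by the number of pairs per cell. Dashed lines mark shifts of 20 points, and coloured points are the 5 largest shifts in each direction, between 70.9 and 80.5 points upward and between -77.0 and -82.3 points downward.

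The 3 pairs with the smallest sum of ranks had the same rank in both lists. The pair on chromosome 21 at 3032222 to 3033206 in induced cells ranked 1 in both lists, with centres 3.5 bp apart and widths of 985 bp in induced and 1396 bp in non-induced cells. The pair on chromosome 5 at 57480596 to 57481617 ranked 2 in both, with centres 50 bp apart. The pair on chromosome 23 at 5432304 to 5433238 ranked 4 in both, with centres 16 bp apart.

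The largest upward shift was at a site on chromosome Z at 27023471 to 27024012, which ranked 641 of 4353 in induced cells and 4146.5, a tied rank, in non-induced cells. On chromosome 1, the site at 110611916 to 110612612 ranked 870 in induced and 4135 in non-induced cells, with centres only 0.5 bp apart. A site near the start of chromosome 4, at 61275 to 61843, ranked 1032 in induced and 4266 in non-induced cells. Its non-induced peak was 2884 bp long, against 569 bp in induced cells, and the centres lay 764 bp apart. The remaining sites were on chromosome 17 at 8687956 to 8688426 (rank 1143 in induced, 4352 in non-induced cells) and chromosome 4 at 48786891 to 48787508 (rank 942 in induced, 4029 in non-induced cells). At all 5 upward sites the non-induced peak scored between 50.09 and 72.19, where the lowest score of that list was 50.03.

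The largest downward shift was on chromosome 2 at 45038285 to 45038930, which ranked 4250 in induced and 668 in non-induced cells. The site on chromosome 7 at 22102709 to 22103327 ranked 3695 in induced and 272 in non-induced cells. On chromosome 22, the site at 2235869 to 2236480 ranked 3617 in induced and 266 in non-induced cells. These 3 had non-induced peaks of 1945, 2284 and 1812 bp with centres 318, 416 and 224 bp from the induced ones. The remaining sites had closely matching centres. They were on chromosome 4 at 73140734 to 73141444 (rank 4128 in induced, 716 in non-induced cells, centres 23 bp apart) and on chromosome 5 at 33668635 to 33669228 (rank 4300 in induced, 928 in non-induced cells, centres 11.5 bp apart). At all 5 downward sites the induced peak scored between 50.68 and 60.06, where the lowest score of that list was 50.

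Length moved with the shifts as a whole. Non-induced peaks over 1500 bp made up 7.34% (5.50 to 9.57) of pairs that shifted up by 20 points or more, 20.9% (17.9 to 24.1) of those that shifted down as far, and 12.4% (11.3 to 13.7) of those between. Centres were within 100 bp in 89.4% of the upward, 79.3% of the downward and 86.3% of the other pairs. In the quartile with the longest non-induced peaks (1311 bp and over), 6.27% of pairs shifted up and 22.4% down by 20 points. In the shortest quartile (up to 1169 bp), 27.3% shifted up and 9.51% down. Grouped by induced width the pattern turned round, with 15.2% up and 7.55% down in the longest quartile (720 bp and over) and 13.8% up and 20.7% down in the shortest (up to 592 bp). Width rose with score within each list, so a grouping by the width of 1 list also groups by its score. A neighbour within 10 kb made little difference: 13.9% of pairs with such a non-induced neighbour shifted up by 20 points and 17.1% down, against 16.3% and 15.0% of pairs without.

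By chromosome, the median shift was small beside the spread within each chromosome. Among the 27 chromosomes with at least 30 pairs it was highest on Z, at 5.01 points (interval 1.42 to 8.80, 200 pairs), chromosome 24, at 4.76 points (0.41 to 8.43, 73 pairs), and chromosome 2, at 2.32 points (0.25 to 4.596, 421 pairs). For these 3 the interval lay above 0, and it lay below 0 for 0 of the 27. With a reciprocal overlap of 50% the median was 1.47 points on chromosome 24 (-1.15 to 8.98) and 1.05 points on chromosome 2 (-0.66 to 3.11), and at equal number it was 2.01 points on chromosome 2 (-0.11 to 4.23), so these intervals took in 0. The lowest medians were on chromosome 28, at -4.05 points (-14.2 to 3.33, 46 pairs), chromosome 26, at -3.62 points (-11.4 to 0.49, 77 pairs), and chromosome 17, at -2.14 points (-6.78 to 0.16, 95 pairs). The other 21 lay between -2.02 and 1.41. Set against the 15.6% of all pairs that rose by 20 points or more and the 15.6% that fell as far, Z had 42 of 200 pairs up (21.0%, interval 15.6 to 27.3) and 22 of 200 down (interval 7.02% to 16.2%). Chromosome 2 had 20.4% (16.7 to 24.6) up and 12.4% (9.36 to 15.9) down. Chromosome 24 had 12.3% (5.80 to 22.1) up and 5.48% (1.51 to 13.4) down, so its median came from many small shifts: 48 of its 73 sites ranked higher. Chromosome 26 had 5.19% (1.43 to 12.8) up and 18.2% (10.3 to 28.6) down. The chromosomes were ordered by these same values, and an interval here does not allow for the choice of extremes among 27.

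**Figure D5:**
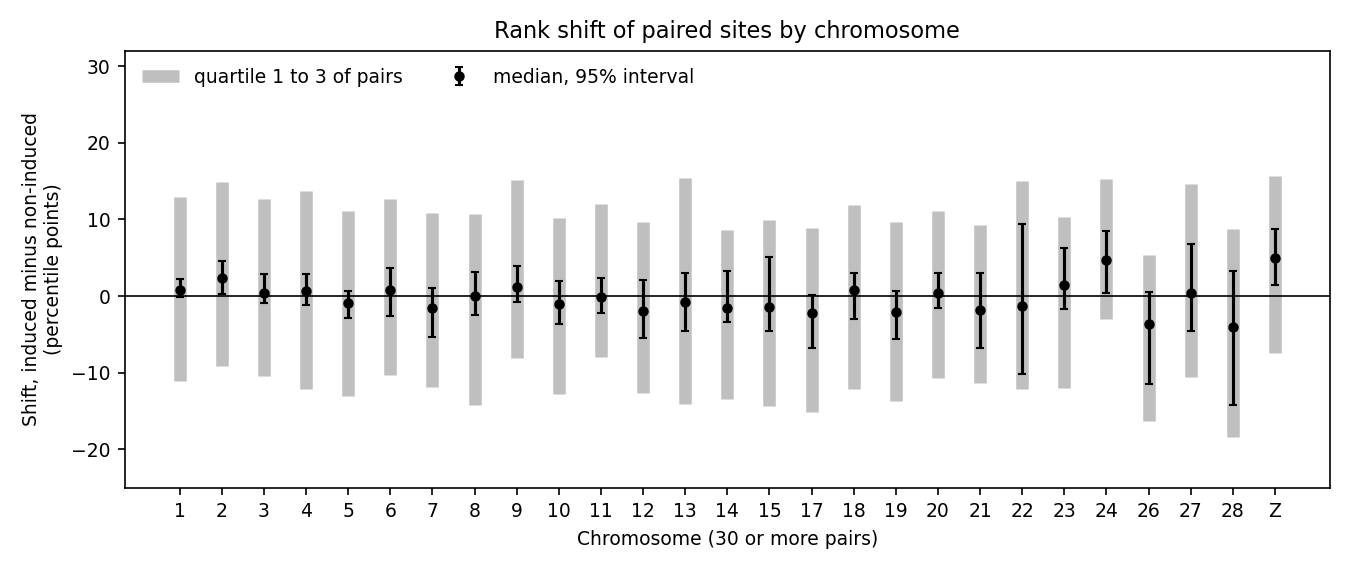
Rank shift of paired sites (induced minus non-induced, percentile points) for the 27 chromosomes with at least 30 pairs. Points are medians with exact 95% intervals and grey bars span the quartiles; Z (5.01) and chromosome 24 (4.76) have the highest medians and chromosome 28 (-4.05) the lowest, all small beside the grey bars.

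By class, the median was 0.69 points on macrochromosomes (interval 0.18 to 1.49, and 0.052 points with a reciprocal overlap of 50%), -0.06 on intermediate chromosomes (-0.90 to 0.99) and -0.60 on microchromosomes (-1.40 to 0.05). Sites on microchromosomes shifted up by 20 points in 12.4% of pairs (10.7 to 14.2) and down in 17.2% (15.2 to 19.3). On macrochromosomes these shares were 17.4% (15.8 to 19.2) and 15.3% (13.7 to 16.9). Over all pairs 15.6% shifted up and 15.6% down as far. Both downward intervals took in that share, and the upward ones lay just below it on microchromosomes and just above it on macrochromosomes.

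The most crowded stretch of the non-induced list, taken as 3 consecutive windows of 100 kb, was on Z and contributed to its shift. There, between 27000001 and 27300000, induced HD3 had 28 peaks and non-induced HD3 had 41, of which 20 were within the equal number of top-ranked peaks. All 28 induced peaks there were paired. Of these 28 pairs, 22 ranked higher in induced cells (78.6%, interval 59.0 to 91.7), against 50.9% of all pairs. Upward shifts of at least 20 points were found in 8 (28.6%, interval 13.2 to 48.7), which takes in the 15.6% of all pairs. As large a downward shift was found in 0 (interval 0 to 12.3%), against 15.6% of all pairs. The median shift of the 28 pairs was 11.02 points (5.01 to 13.9). The largest upward shift of all pairs, at 27023471, was among them. Many of these sites followed each other at near-even steps, with induced starts such as 27003945, 27006813, 27009603 and 27012601. They may therefore not be independent sites, as the interval takes them to be, and this was not tested. This stretch was known from earlier results before its shifts were computed, but it was named only after values of these data were seen. On the rest of Z the median was 3.13 points (-0.23 to 6.69, 172 pairs), so the interval then took in 0. The rest of Z still held 213 induced against 170 non-induced peaks at equal number.

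Along the chromosomes, 163 windows of 1 Mb held at least 8 pairs, and the quartiles of their median shifts were -5.34 and 3.43 points. The lowest was on chromosome 1 at 51000001 to 52000000, where all 8 sites ranked lower after induction, with shifts between -45.1 and -7.81 points and a median of -18.2. It was followed by chromosome 13 at 8000001 to 9000000, with 9 of 12 sites lower, and chromosome 3 at 30000001 to 31000000, with 6 of 8 lower. The highest window was chromosome 3 at 21000001 to 22000000, with 7 of 8 sites higher and a median of 14.9 points. Next came chromosome 23 at 1 to 1000000, with 6 of 8 higher, and chromosome 4 at 48000001 to 49000000, with 7 of 9 higher. The windows were ordered by these same values and named as extremes among 163. Apart from the chromosome 1 window, the interval of each named median took in 0, for example -10.5 to 57.5 for the highest. Neighbouring sites shifted the same way little more often than the opposite way. The direction was the same for 54.6% (49.0 to 60.1) of the 326 neighbouring pairs within 10 kb and for 51.5% (48.8 to 54.3) of the 1331 more than 200 kb apart.

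Peaks called in 1 state only were mostly low in score, but those of the induced list had a share of very long members. The 367 induced peaks that overlapped no non-induced peak had a median score of 60.9, against 89.6 for the 4447 that did. The 4361 non-induced peaks that overlapped no induced peak had a median of 78.5, against 175.8 for the 4400 that did. Most were separate places and not near misses: the closest peak of the other list lay a median of 35.7 kb away for the induced and 52.6 kb for the non-induced ones, and it was within 1 kb for 3 and 63 of them.

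Of the 22 induced peaks longer than 3000 bp, 19 had no non-induced partner (86.4%, interval 65.1 to 97.1), and of the 59 longer than 1500 bp, 49 had none (83.1%, interval 71.0 to 91.6). Among the 4755 shorter induced peaks the share was 6.69% (5.99 to 7.44). In the non-induced list long peaks lacked a partner less often than shorter ones. There, 15 of 44 over 3000 bp had none (34.1%, interval 20.5 to 49.9), against 51.0% (49.9 to 52.1) of those up to 1500 bp. The longest of the 19 was on chromosome 3 at 41102745 to 41110652, which is 7908 bp. The 19 lay on 10 chromosomes, 4 of them on Z, and their scores ran between 53.7 and 197, so they were not all weak. The highest of these was near the start of chromosome 17, at 79267 to 84741 (5475 bp, score 197, rank 473), with the nearest non-induced peak 266 kb away.

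The other top-scored induced peaks without a partner were of ordinary length and lay side by side on chromosome 1. They were at 100391489 to 100392225 (737 bp, score 231, rank 301) and 100390521 to 100391349 (829 bp, score 184, rank 567), with the nearest non-induced peaks 18.2 and 19.1 kb away. Of the non-induced peaks without a partner the top-scored were on chromosome 28 at 815914 to 818960 (3047 bp, score 363, rank 564), chromosome 15 at 5405246 to 5406538 (1293 bp, score 349, rank 629) and chromosome 20 at 5755706 to 5756883 (1178 bp, score 336, rank 691). Their nearest induced peaks were 29.1, 49.3 and 38.3 kb away.

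The peaks called only after induction also differed in place. On Z lay 10.1% (7.20 to 13.6) of the 367, against 4.59% (3.99 to 5.24) of induced peaks with a partner. Within 200 kb of a chromosome end, taken as position 1 or the last peak of either list, lay 8.17% (5.58 to 11.5) of the 367, against 2.83% (2.37 to 3.36) of those with a partner. The far end was thus set by the counted peaks themselves. Near the start alone lay 12 of the 367 (3.27%, interval 1.70 to 5.64), against 1.17% (0.87 to 1.53) of those with a partner. Leaving out peaks over 1500 bp, the shares were 7.86% on Z (5.15 to 11.4) and 7.23% near an end (4.64 to 10.7) among 318 peaks. For the non-induced list the shares on Z were 4.68% without and 4.59% with a partner, and near an end 1.99% and 2.82%. Microchromosomes held 26.2% (21.7 to 31.0) of the 367 and 32.3% (30.9 to 33.7) of the induced peaks with a partner, and 25.9% (24.6 to 27.3) and 32.1% (30.7 to 33.5) of the non-induced ones.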

How the data were processed

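The series holds CTCF ChIP-seq of HD3 and DT40 cells and an HD3 input; the DT40 list and the input were not compared here. Per the submitters' processing notes, the authors used CASAVA 1.8.2, Bowtie2 and MACS on build galGal4. The sources used here give neither parameters nor the control of each MACS run. The authors deposited 1 peak list per library, with start, end and a score whose scale is not stated. Scores were used only to rank peaks within a list. The lists hold no counts, so depth is unknown.

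Peaks on W (5 induced, 6 non-induced) and LGE64 (1 each) were left out. Ties in score were ordered by chromosome and start. Shares carry exact Clopper-Pearson 95% intervals and medians exact order-statistic ones. The overlap step was tested on simulated lists, where 3000 of 3000 shared sites were recovered. The simulated sites were well separated with closely matching centres, so crowded, divided or very long peaks were not tried. Sites were named by rule: the 5 largest shifts each way, the 3 highest pairs and the 3 top unshared peaks per list. The 3 extreme chromosomes and 1 Mb windows each way were named too. Of the 47 non-induced peaks that overlapped 2 induced peaks, the highest-scored was named, since 0 overlapped more. The long peaks and the Z stretch were named after their values were seen. The members, comparisons and alternatives were chosen with earlier results of these data known. Alternatives covered overlap rule, list length, ties, sequences, long peaks, chromosome classes and call threshold. Software was Python 3.11.15, SciPy 1.17.1, pandas 2.3.3, matplotlib 3.10.9 and NumPy 2.4.6.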

Additional observations from a re-analysis of the deposited data

How the results depend on the processing

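No paired analysis was possible because there was a single library per state, which also left no replicate to leave out. Of 112 recomputed values, 69 stayed within the interval of the reported one and 43 moved beyond it. Some of the 69 could not change under their setting, such as induced spacing with whole lists or median shifts under another call threshold. The tally is therefore no measure of how firm the results are. The order of the lists turned for the microchromosome share, 31.8% of induced against 29.0% of non-induced peaks with whole lists, and for neighbours within 10 kb with 2000 peaks or by distance between centres. For sharing, in the order induced then non-induced peaks found, a reciprocal overlap of 50% gave 48.5% and 48.5%, midpoints within 500 bp 73.0% and 72.7%, and fixed 200 bp windows 66.9% and 66.9%. With 1000 peaks per list it was 71.6% and 71.4%, and with whole lists 92.4% and 50.2%. A reciprocal overlap of 50% cannot be reached where the induced peak is less than 50% as long as the non-induced one. In the pairs the ratio of induced to non-induced width had a median of 0.53 and a lower quartile of 0.48. The median non-induced width was 1248 bp at equal number. Centres were within 100 bp in 83.9% of all overlapping pairs, and in 94.2% under reciprocal overlap, with a median distance of 31.0 bp. Gaps followed list length. The median gap was 400.3 kb in induced and 349 kb in non-induced HD3 with 1000 peaks, 208 and 192 kb with 2000, and 50.1 kb for the whole non-induced list. The share with a neighbour within 10 kb was 5.30% and 5.60% with 1000 peaks, 9.70% and 8.75% with 2000, and 17.1% and 17.01% by distance between centres. It was 27.7% for the whole non-induced list. Microchromosomes held 38.9% of induced and 42.5% of non-induced peaks with 1000, 35.2% and 36.95% with 2000, and 37.95% and 39.2% when counted from chromosome 9. The whole non-induced list had 4.63% on Z. Z held 2.90% and 2.10% with 1000 and 4.00% and 3.25% with 2000. Under reciprocal overlap, shifts of 20 points were found in 14.1% of pairs upward and 13.4% downward, and the macrochromosome median was 0.052 points. Calling at 10 points gave 29.1% and 27.5%. The cause of these moves was not tested. The medians of the 6 named chromosomes stayed within the reported intervals in 30 of 30 recomputations, but some shrank. Under reciprocal overlap they were 1.47 points on chromosome 24 and 1.05 on chromosome 2, and both intervals then took in 0. At equal number they were -1.45 on chromosome 28, -0.99 on chromosome 26 and 2.01 on chromosome 2, whose interval again took in 0. The 10 most shifted sites kept their direction and a shift of at least 20 points in all 38 recomputations that still held them. In 12 the pair was no longer formed. These take in all 5 upward sites at equal number, since their non-induced peaks scored below the cut of 100.12. These sites were chosen for their large shifts and the same scores were ranked again, so this outcome was largely set in advance. Leaving out the crowded stretch of Z was chosen after the data were seen.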
